A study of Mus musculus with 15 samples.

Results

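Heme is the iron porphyrin that hemoglobin, catalase and the cytochromes P450 carry. It is built in a chain of enzymatic steps that begins and ends in the mitochondrion, and heme oxygenase opens its ring again. The 9 genes described here are Alas1, Alas2, Alad, Uros, Urod, Cpox, Ppox and Fech of the synthesis chain and Hmox1 of breakdown, out of 54532 genes in the tables. They were taken by gene name, and they were chosen by looking at diet values of these same libraries, so the comparisons between diets and between tissues are given as a description of these samples. All 9 passed the filter on low counts in both tissues. RNA was sequenced from bulk tissue of male wild type C57BL/6J mice, an inbred laboratory strain, fed a control diet (CS group) or the same diet with 2% phytosterols (PS group), which are plant sterols that resemble cholesterol. The livers came from 4 CS and 5 PS mice and the lungs from 3 CS and 3 PS mice, 1 library a mouse, and the 6 lung mice were among the 9 liver mice. By their labels the mice were 28 weeks old, and the times in the study's methods sum to more than that.

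The first step of the chain joins glycine and succinyl-CoA to 5-aminolevulinate and sets the pace of the whole pathway. Alas1 encodes the enzyme of this step in most tissues and is known to be held down by heme in the liver. Alas2 encodes the form made by red cell precursors, on which translation depends on iron. Alad joins 5-aminolevulinate to porphobilinogen, and Uros and Urod make uroporphyrinogen and coproporphyrinogen, the ring compounds that follow. Cpox and Ppox oxidise the ring in the mitochondrion, and Fech inserts the iron. Hmox1, the inducible heme oxygenase, releases iron, carbon monoxide and biliverdin, and macrophages that take up old red cells express it.

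The tables place Alas1 (ENSMUSG00000032786) at chr9:106233455-106248654 on the minus strand and Alas2 (ENSMUSG00000025270) at chrX:150547375-150570638 on the plus strand of mm10. Alad (chr4:62509169-62519918) and Urod (chr4:116989965-116994413) lie on the same chromosome. Uros lies at chr7:133686243-133710072, Cpox at chr16:58670292-58717636, Ppox at chr1:171275990-171281186 and Hmox1 at chr8:75093621-75100589. Exons of 4 members overlap exons of genes on the other strand, and the strand setting of the counting was not stated. Alas2 shares 311 bases with Apex2, Ppox 791 with B4galt3, Cpox 204 with Gpr15 and Alas1 465 with 4930500F10Rik.

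Starts of transcription in RefSeq (GRCm38.p6) were matched for 7 of the 9 members, Fech and Hmox1 being the others. The upstream 250 bases of the first of these RefSeq starts are shown for Alas1 and Alas2, because these genes encode the same step and differed in both the liver and the lung results. These starts differ from the gene bounds given above. The stretch of Alas1 lies inside its bounds, and that of Alas2 runs past the start of its bounds. Capitals mark a GATA motif (AGATAA on either strand), the element that erythroid GATA factors read.
Alas1, chr9:106247955-106248204, minus strand: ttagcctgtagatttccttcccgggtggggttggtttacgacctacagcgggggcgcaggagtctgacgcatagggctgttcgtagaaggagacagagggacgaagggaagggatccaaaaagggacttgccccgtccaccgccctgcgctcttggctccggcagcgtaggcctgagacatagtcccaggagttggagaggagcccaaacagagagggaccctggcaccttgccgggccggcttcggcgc
Alas2, chrX:150547167-150547416, plus strand: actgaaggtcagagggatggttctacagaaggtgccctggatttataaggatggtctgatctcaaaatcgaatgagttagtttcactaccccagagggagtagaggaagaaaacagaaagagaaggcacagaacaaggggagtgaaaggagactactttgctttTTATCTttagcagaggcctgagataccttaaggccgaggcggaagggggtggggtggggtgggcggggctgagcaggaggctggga

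Of 27025 genes with windows from 250 bases before to 50 after a start, 12.7% held the GATA motif, and 2 of the 7 members did. The match of Alas2 began 86 bases before the start and that of Cpox at base 5 after it. The E-box CACGTG, which CLOCK and ARNTL and also other factors bind, stood in windows of 8.09% of genes and in those of Alad, Uros and Urod. The palindrome of the respiratory factor NRF1 stood in those of 1.07% of genes and, among the members, in Alas1 alone. A match of letters is no evidence that a factor was bound. The sites except that of Uros, which lies at the edge of its window, are shown in their 30-base surroundings or, for Alas2, in the sequence above, with the motif in capitals, because the clock genes and the erythroid genes are compared with the members below.
Alas1, NRF1, chr9:106247906-106247935, minus strand: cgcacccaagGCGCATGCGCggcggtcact
Cpox, GATA, chr16:58670200-58670229, plus strand: cagggtgcagtcTTATCTgctctttccggg
Alad, E-box, chr4:62520151-62520180, minus strand: gctccgaatgccCACGTGgaccccctcggg
Alad, second E-box, chr4:62519920-62519949, minus strand: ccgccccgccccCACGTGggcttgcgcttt
Urod, E-box, chr4:116994445-116994474, minus strand: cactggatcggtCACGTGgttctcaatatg

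Library totals were 14410117 to 17625179 counts in the liver and 17934930 to 19396057 in the lung, and each of the 9 members had at least 92 counts in every library. Markers matched the tissues. Summed hepatocyte markers lay between 78742 and 122260 CPM (counts divided by the scaled library size) in the livers and at 132 or less in the lungs, and lung epithelium markers at 62036 or more in the lungs and 6.13 or less in the livers. The liver libraries CS 2, PS 1 and PS 3 stood apart for several members, and values that changed without them are given. In bulk tissue, fewer cells of a type and less RNA per cell cannot be told apart.

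Per length, in RPKM (CPM divided by gene length in kilobases, with 1 TMM scaling over all 15 libraries, mean ± SD), Alad was the highest member in the CS livers at 127 ± 66.4 (n = 4). Alas1 followed at 68.9 ± 10.7, Fech at 52.3 ± 17.7, Urod at 45.7 ± 9.22 and Cpox at 40.4 ± 21.4. Alas2 stood at 27.9 ± 14.1, Hmox1 at 14.02 ± 5.31, Uros at 8.87 ± 2.08 and Ppox, the lowest, at 4.75 ± 2.19. The ranges of every pair of neighbours in this order overlapped. The place of Fech depended on its length, which was 2901 bases in the deposited tables and 13838 exonic bases in GENCODE M21. With the longer length it stood at 10.97 ± 3.71 RPKM in the CS livers and 2.09 ± 0.292 in the CS lungs. In the PS livers Alas1 was at the top, at 153 ± 16.3 RPKM (n = 5), beside Alad at 145 ± 39.8.

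In the CS lungs Alas1 led with 25.2 ± 1.20 RPKM (n = 3), and all 3 values lay above those of the next gene, Alas2, at 13.9 ± 4.17. Fech (9.97 ± 1.39), Alad (9.96 ± 0.212), Hmox1 (9.34 ± 1.32) and Urod (8.27 ± 0.325) formed a group whose neighbours overlapped. Ppox (2.72 ± 0.443), Cpox (2.08 ± 0.108) and Uros (1.67 ± 0.134) were lower, and no neighbours among these 3 overlapped. In the PS lungs the order was Alas1 (26.5 ± 8.41 RPKM), Alad (14.4 ± 1.17), Hmox1 (11.6 ± 2.57), Fech (8.18 ± 0.968), Urod (7.80 ± 0.362), Alas2 (5.79 ± 2.02), Ppox (5.53 ± 2.04), Uros (2.48 ± 0.357) and Cpox (1.22 ± 0.0643). Alas2 thus went from the second place in the CS lungs to the sixth in the PS lungs, or to the fifth with the longer length of Fech (1.72 RPKM).

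**Figure D1:**
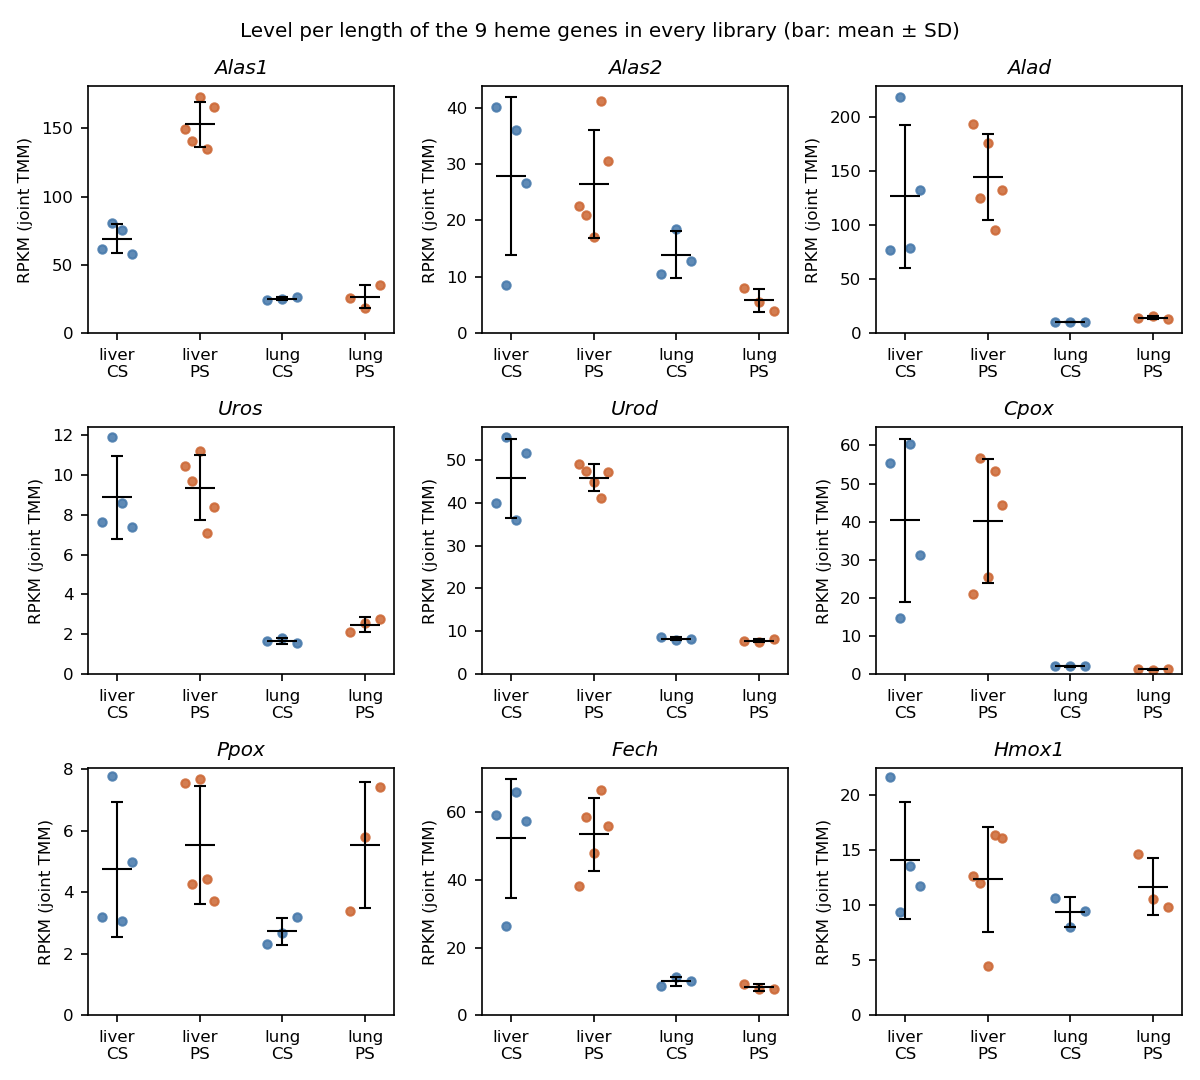
Level of each of the 9 genes in RPKM (vertical axes from 0, one scale per gene) in each library of the 4 groups, with the mean ± SD as a black bar. Alas1 in the PS livers lies between 134.7 and 173 RPKM, above all 4 CS livers, and the lung levels of Alad, Urod, Cpox and Fech lie far below those of the liver.

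In the liver the diets were set apart by Alas1 alone among the 9 genes. Its CPM (scaled by TMM within the tissue) was 259.7, 352, 317 and 239 in the 4 CS mice and 637, 586, 729, 557 and 693 in the 5 PS mice. Every PS mouse was above every CS mouse. The ranges of the diets did not overlap, in either direction, for 1 of the 9 members and for 3.63% of the 13195 genes tested. The log2 fold change was 1.13 ± 0.185 (SE), or 2.19-fold. In edgeR's quasi-likelihood test over all genes the p of Alas1 was the seventh smallest (6.34e-05), with an adjusted p of 0.0974. No member of 9 had an adjusted p under 0.05, beside 0.00758% of all genes, and 1 had an unadjusted p at most 0.05, beside 7.55%. Over the alternatives the adjusted p of Alas1 ranged from 1.34e-07 with DESeq2's Wald test to 0.99978 with the replicate number as a block, and reached 0.304 with 1 library left out, while its log2 fold change stayed between 1.05 and 1.23. It was 1.17 without CS 2, PS 1 and PS 3.

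The other 8 members gave log2 fold changes between -0.20 and 0.20 in the liver, with adjusted p of 0.959 or more. With 1 library left out, Ppox ranged from 0.035 to 0.57 and Alad from -0.014 to 0.60. Without CS 2, 2 of 9 members had an unadjusted p at most 0.05 (edgeR), beside 1891 of 13368 genes. Alas2 read 65.7, 14.6, 59.0 and 42.8 CPM in the CS livers and 37.3, 34.0, 27.9, 66.3 and 49.8 in the PS livers, so the groups overlapped over nearly their whole range. Its log2 fold change was -0.08 ± 0.385, with bounds of the normal-theory 95% interval at -0.83 and 0.67. Those bounds were -0.36 and 0.34 for Urod, the steadiest of the 8, and -0.82 and 0.78 for Cpox.

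These wide intervals came with a pattern that ran across both diets. Alad was highest in CS 2 (291 CPM), PS 1 (250.2) and PS 3 (225), against 97.5 to 168 in the other 6 livers. Ppox in the same 3 livers was 24.9, 23.6 and 23.6 CPM, against 9.40 to 15.1 in the rest, and Uros was also highest there. Cpox was lowest in the same 3, at 69.2, 96.3 and 115 CPM, against 139 to 274 in the rest, and Fech was likewise lowest, at 54.3, 76.3 and 94.9. Alas2 was lowest in CS 2 and PS 3, but PS 2 lay below PS 1. Alas1 and Urod did not follow this split. The genes of highest GC content, against those of lowest (each 20% of genes), stood 0.557 higher on the log2 scale in CS 2, 0.183 in PS 1 and 0.0667 in PS 3, beside -0.361 to 0.0473 in the other 6 livers, so PS 3 lay close to the highest of these. The GC content of the exons was 56.2% for Alad, 53.1% for Ppox and 50.3% for Uros, 47.7% for Cpox and 46.0% for Fech, and 53.3% for Alas2. It was 53.9% for Urod and 53.5% for Alas1, which did not follow the split although both lay above Ppox and Uros. The part of GC content in the pattern was not tested.

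**Figure D2:**
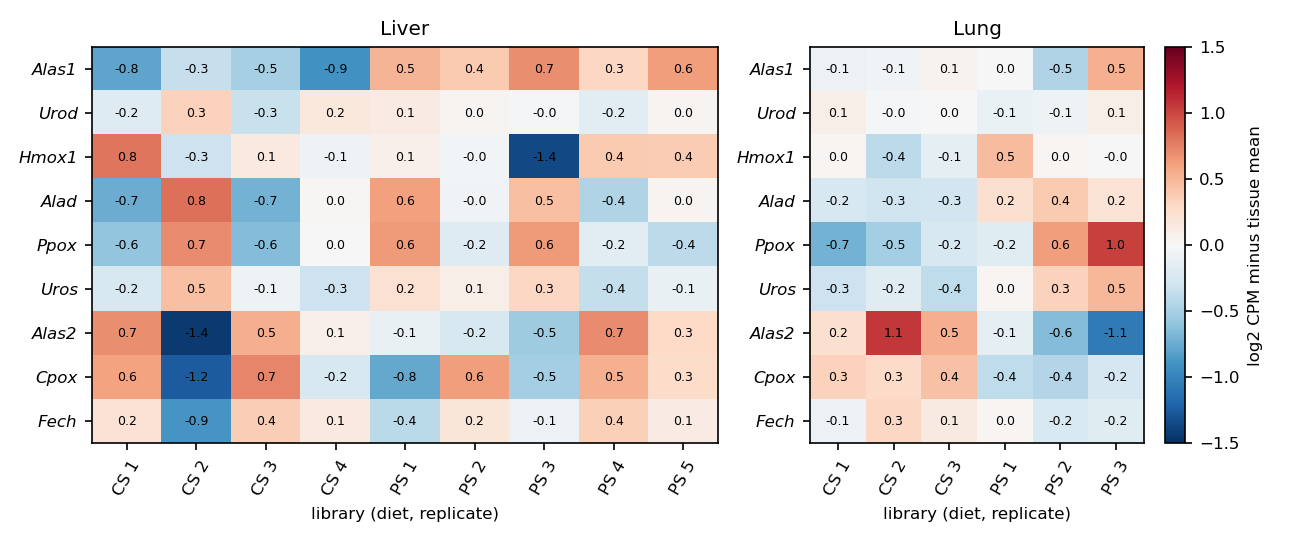
Log2(CPM + 0.5) of each gene minus its mean over the libraries of the tissue, with libraries in columns (diet and replicate) and genes in rows, red above the mean and blue below it. In the liver Alad, Ppox and Uros are above and Cpox and Fech below their means in CS 2, PS 1 and PS 3, and Alas1 alone splits by diet.

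Hmox1 read 25.7, 11.6, 16.1 and 13.7 CPM in the CS livers and 15.3, 14.1, 5.36, 19.2 and 19.1 in the PS livers. The groups overlapped, and the log2 fold change was -0.20 ± 0.349. The lowest liver, PS 3, was also the lowest in the summed markers of Kupffer cells, the resident liver macrophages, at 49.97 CPM. The other livers did not keep this order. CS 2 and CS 4, the next lowest in Hmox1, had sums of 176 and 194 CPM. PS 1, the next lowest in the sum at 67.2 CPM, read 15.3 for Hmox1. That sum lay between 151 and 194 in the CS livers and between 49.97 and 159 in the PS livers, with none of the 4 markers at 0 in any liver. All 4 markers were lower in the PS livers, with a median log2 fold change of -0.76, beside -0.03 over all genes. Of those 4 markers, 1 had an unadjusted p at most 0.05, beside 7.55% of all genes, and none passed the adjustment. The part of macrophage content in the Hmox1 values was not tested.

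The liver values of Alas1 are set beside those of the clock genes, from which the daily rhythm of most cells is built and whose level depends on the hour. Of 12 clock genes, 8 were higher and 3 lower in the PS livers at an unadjusted p at most 0.05, beside 7.55% of all genes, and none had an adjusted p under 0.05. In the lung the counts at an unadjusted p at most 0.05 were also 8 and 3, beside 30.1% of all genes. Nr1d1, a repressor of the clock, read 20.4 to 41.0 CPM in the CS livers and 73.1 to 109 in the PS livers, a log2 fold change of 1.29 ± 0.231 with an adjusted p of 0.103. Arntl, an activator of the clock, read 13.9 to 23.2 CPM in CS and 4.02 to 9.66 in PS (-1.57 ± 0.272, adjusted p = 0.0974), and its log2 fold change in the lung was -0.39 ± 0.170. Both were chosen after their values were seen. The hour of collection was not given per mouse, and its part in the Alas1 values was not tested. In the lung, where the log2 fold change of Alas1 was 0.11 ± 0.234, 5 clock genes passed the adjustment, beside 9.22% of all genes: 4 rose (Nr1d1, Nr1d2, Per1 and Ciart) and Cry1 fell by 0.79 on the log2 scale (adjusted p = 0.0332).

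**Figure D3:**
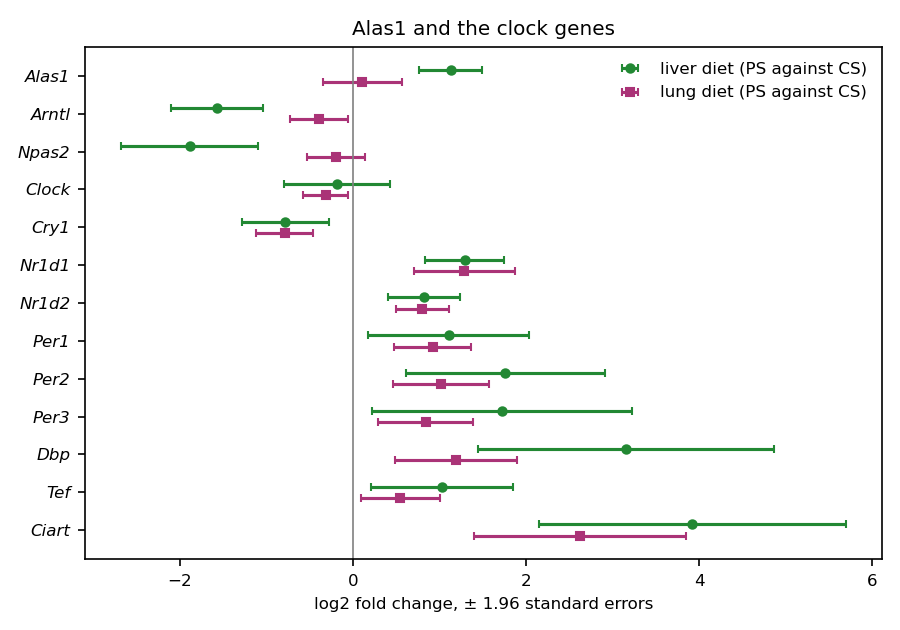
Log2 fold change of PS against CS for Alas1 and 12 clock genes in the liver (circles) and the lung (squares), with bars for the normal-theory 95% interval. Alas1 is at 1.13 in the liver and 0.11 in the lung, Arntl at -1.57 and -0.39, Npas2 at -1.88 and -0.20, Dbp at 3.15 and 1.19, and Nr1d1 at 1.29 in both tissues.

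The genes whose profile over the 9 livers was most like that of Alas1 were Fdft1, Malat1 and Lss, with root mean square differences of 0.131, 0.170 and 0.201 on the centred log2 CPM scale among 10304 genes, against 0.596 for a flat line. Fdft1 and Lss encode squalene synthase and lanosterol synthase, and Malat1 is a nuclear non-coding RNA. The profiles were not centred within diets. Alas1 split by diet, so genes with a like split between diets come near it by construction. For Alas2 they were Adnp2 (0.120), Hsd17b7 (0.168) and Lrrc58 (0.170). For Hmox1 they were Csf2rb (0.235), Ctss (0.247) and Arhgdib (0.286), of which Ctss encodes cathepsin S of antigen-presenting cells. In the 6 lungs, among 13193 genes, the closest to Alas1 was Zfp358 (0.0874), to Alas2 Gnpda2 (0.212) and to Hmox1 Bloc1s2 (0.0464).

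In the lung, Alas2 and Cpox were lower and Alad was higher in the PS group, while Alas1 showed no separation. Alas2 read 44.0, 78.1 and 54.5 CPM in the CS lungs and 33.5, 23.6 and 17.6 in the PS lungs. Every PS lung was below every CS lung, and the log2 fold change was -1.24 ± 0.278, or 2.36-fold lower (adjusted p = 0.0354, edgeR). Cpox read 24.2, 23.1 and 25.8 CPM in CS and 14.4, 13.8 and 15.8 in PS, again without overlap, at -0.73 ± 0.154 or 1.66-fold lower (adjusted p = 0.0319). Alad was higher, at 33.6, 32.3 and 32.6 CPM in CS and 47.0, 52.2 and 46.0 in PS, or 0.56 ± 0.134 and 1.47-fold (adjusted p = 0.0403). The members with an adjusted p under 0.05 were thus 3 of 9, 1 higher and 2 lower, beside 9.22% of the 16717 genes tested.

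Ppox and Uros stood close to the threshold in the lung. Ppox read 18.4, 21.1 and 25.5 CPM in CS and 26.7, 46.9 and 62.2 in PS, and the lowest PS lung lay just above the highest CS lung. Its log2 fold change was 1.07 ± 0.285 (adjusted p = 0.0504), and 6 of 10 alternatives other than leaving out a library brought it under the threshold. The log2 fold change of Uros was 0.61 ± 0.196 (adjusted p = 0.0764), with 9.77 to 11.4 CPM in CS and 13.1 to 18.5 in PS. B4galt3, whose exons overlap those of Ppox, had a log2 fold change of -0.26 ± 0.425 in the lung. Apex2, which overlaps Alas2, had one of 0.31 ± 0.250, opposite in sign to that of Alas2.

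The members that showed no separation in the lung were Alas1, Urod, Fech and Hmox1. Alas1 read 263, 269 and 289.7 CPM in CS and 279.9, 204 and 403 in PS, so the PS lungs spread to both sides of the CS lungs. Urod (-0.05 ± 0.137), Fech (-0.25 ± 0.158) and Hmox1 (0.34 ± 0.186) overlapped between the diets as well. Of 4 macrophage markers in the lung, 2 had higher and 2 lower values in PS (median log2 fold change 0.03), and 1 was called, beside 9.22% of all genes. This was Adgre1, which encodes the surface protein F4/80 and read 14.7 to 20.2 CPM in CS and 8.37 to 10.7 in PS (-0.81 ± 0.206, adjusted p = 0.0448). Csf1r, the receptor of a macrophage growth factor, was at 0.42 and Cd68 at 0.54, and neither was called. Of 4 alveolar macrophage markers, 3 had higher values in PS and none was called. Their part in the Hmox1 values was not tested. In all, 5 of 9 members had an unadjusted p at most 0.05, beside 30.1% of genes, and the same number did not overlap between diets, beside 36%.

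The calls in the lung depended on single libraries. None of the 9 members was called without CS 1, CS 2, CS 3 or PS 2, whereas 5 were called without PS 1. The calls over all genes moved in the same way, from 1542 with all 6 lungs to 23, 26, 0 and 9 without those libraries and to 2949 without PS 1. The log2 fold changes of Alas2 stayed between -1.52 and -1.004 with 1 library left out. Alas2 missed the threshold with limma on the FPKM values (adjusted p = 0.0518 and 0.0548 with pseudocounts of 1 and 0.1). Alad lost its call when the GC trend (0.42, adjusted p = 0.0931) or the length trend (0.47, adjusted p = 0.0625) was removed, and with library totals in place of TMM (adjusted p = 0.0606). The GC measure was -0.218 to -0.108 in the CS lungs and -0.0177 to 0.354 in the PS lungs, so it moved with the diet. Alad, Ppox and Uros were higher and Cpox and Fech lower in the PS lungs. These were the directions of livers CS 2, PS 1 and PS 3, which belonged to both diets. Of these genes only Alad and Cpox were called in the lung, and Fech overlapped between the diets. The part of that pattern and of GC content in the lung values was not tested.

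**Figure D4:**
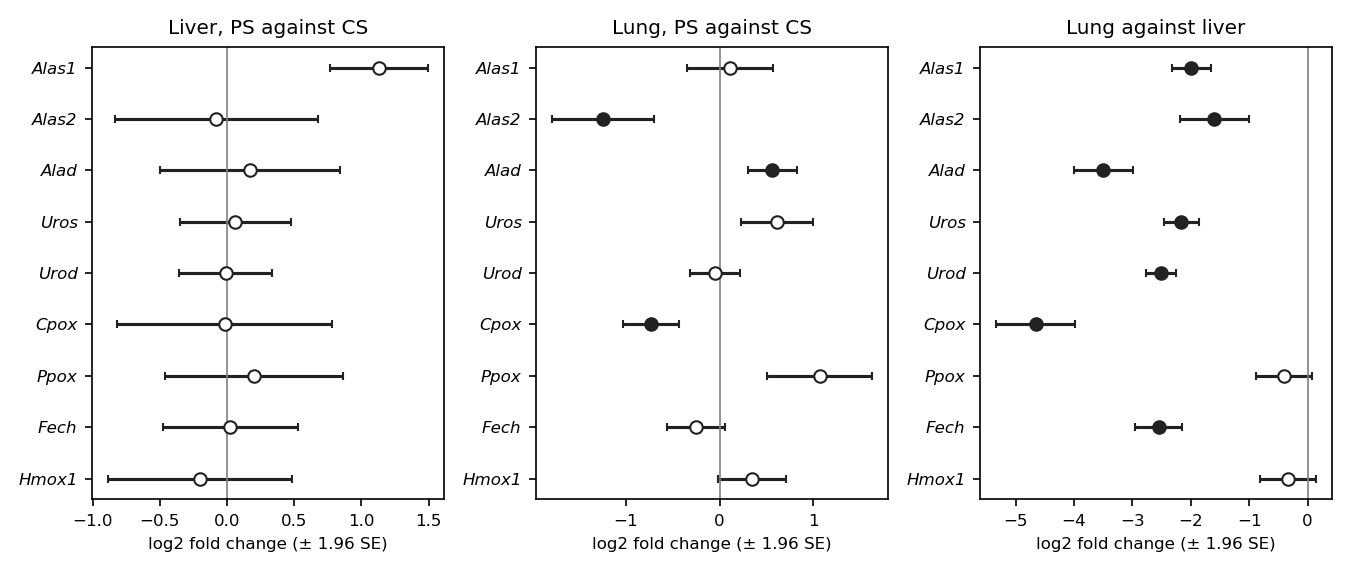
Log2 fold change of each gene with the normal-theory 95% interval for PS against CS in the liver, for PS against CS in the lung, and for lung against liver. Filled points have an adjusted p under 0.05. No point is filled in the liver, Alas2, Alad and Cpox are filled in the lung, and 7 genes are filled on the negative side in lung against liver.

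Globin mRNA was set beside Alas2, since both are made by red cell precursors. The summed level of 4 globin genes was 118 to 579.5 CPM in the livers and 807 to 2005.5 in the lungs with 1 TMM scaling over both tissues, whereas Alas2 spanned 20.6 to 98.9 in the livers and 9.49 to 44.5 in the lungs on the same scale. Alas2 reads therefore came to 5.69% to 42.8% of the globin reads in the livers and 0.779% to 2.96% in the lungs. Among the lungs the share was 2.05%, 2.96% and 2.18% with the CS diet and 0.952%, 0.779% and 1.18% with the PS diet, without overlap. The globin sum itself overlapped between the diets in the lung, on the scale within the tissue, at 2147 to 2635 CPM in CS and 1497 to 3523 in PS. Membrane and skeleton genes of the red cell series were at or near 0 in the livers: Epb42 and Rhag had 0 counts in all 9. In the lungs Epb42 had 8 to 20 counts with the CS diet and 4 to 10 with the PS diet. Of 12 erythroid markers, 11 were in the tables, and none of the 9 tested in the lung passed the adjustment between diets.

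Across the 9 livers the log2 levels of Alas2 and of the globins had a Pearson r of 0.153 (exact permutation p = 0.601) and a Spearman rho of 0.433 (p = 0.250, exact permutation). Across the 6 lungs r was 0.334 (exact permutation p = 0.539) and rho was 0.143 (exact permutation p = 0.803). Over both relations the adjusted p of r was 0.601 in each tissue, and that of rho was 0.4998 and 0.803. Without the 2 lungs farthest from the median globin level r turned to -0.434 (n = 4), and without the 2 such livers it was 0.130. Alas2 did not overlap between the diets in the lung, so both levels were also centred on the mean of their diet and permuted within diets. The lungs then had an r of 0.7998 (n = 6, exact permutation p = 0.0833, where 0.0278 is the smallest possible, adjusted p = 0.167) and the livers one of 0.1498 (n = 9, exact permutation p = 0.657).

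**Figure D5:**
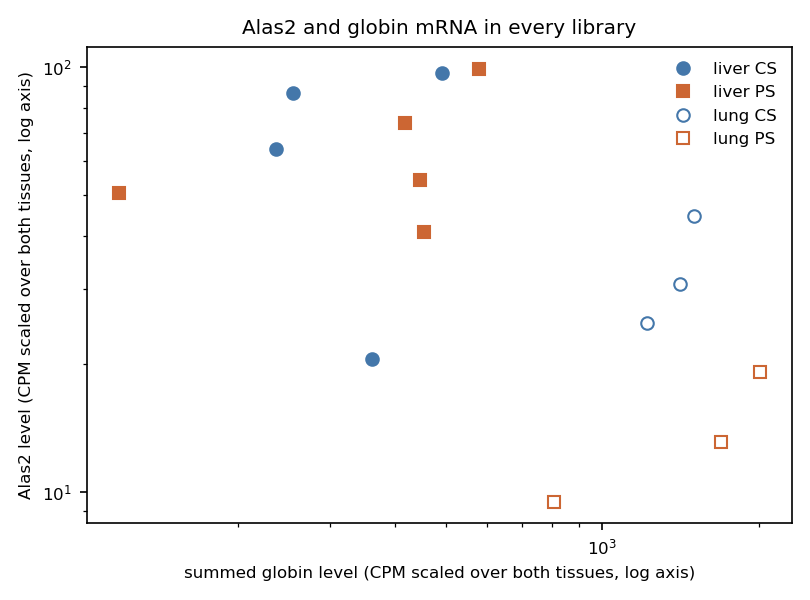
Level of Alas2 (vertical log axis) against the summed level of 4 globin genes (horizontal log axis) in each library, both in CPM scaled over both tissues, with livers filled and lungs open. Globin mRNA is at least 807 CPM in every lung and at most 579.5 in every liver, while the Alas2 values of the tissues overlap.

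A test of the difference between the diet effects of the tissues, in 1 model over all 15 libraries, called 0 of 9 members, beside 0.0226% of 17696 genes. Alas1 came nearest, with the lung effect 1.08 ± 0.317 below that of the liver on the log2 scale (unadjusted p = 0.0036, adjusted p = 0.306, edgeR), and 1 of 9 members thus had an unadjusted p at most 0.05, beside 10.9% of all genes. Without livers CS 2, PS 1 and PS 3 those were 4 of 9 (Alas1, Alas2, Cpox and Ppox) and 2689 of 17504 genes, and no member passed the adjustment. DESeq2's Wald test gave it an adjusted p of 0.0307, and the range over the alternatives reached 0.872 with the mouse as a block. For Alas2 the difference was -1.19 ± 0.577 (adjusted p = 0.465).

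Between the tissues, 7 of the 9 members were lower in the lung after TMM scaling with an adjusted p under 0.05, beside 34.4% of all genes called lower. Cpox differed most, at -4.66 ± 0.344 or 25.3-fold lower, followed by Alad (-3.50 ± 0.257), Fech (-2.55 ± 0.204) and Urod (-2.51 ± 0.129). Uros (-2.16 ± 0.155), Alas1 (-1.99 ± 0.170) and Alas2 (-1.60 ± 0.303) had smaller differences. Ppox (-0.40 ± 0.246) and Hmox1 (-0.33 ± 0.244) were not called. Within the CS diet 7 of 9 members were called lower, beside 30% of all genes, and within the PS diet 7 of 9, beside 30.7%. Alas1 was 2.74-fold lower in the lung within the CS diet and 5.77-fold lower within the PS diet.

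These sizes depended on the scaling. The log2 fold change of lung against liver had a median over all genes of 0.17 with TMM and 1.55 with library totals alone. With library totals Alas1 stood at -0.60, Alas2 at -0.24 with an adjusted p of 0.456, and Ppox and Hmox1 turned to 1.01 and 1.03 and were called higher in the lung (adjusted p = 0.00089 and 0.00101, edgeR). The members lay below the median of all genes under both scalings. Blocking on the mouse, in the 6 mice with both tissues, kept all 7 calls.

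The other genes of heme metabolism and iron were counted by list. The lung counts of each list are to be read beside the 9.22% of all genes that were called there. Of 13 other genes of heme synthesis and its mitochondrial steps, 1 was called in the lung and none in the liver. This was Slc25a38, the mitochondrial glycine carrier, at 21.3 to 22.3 CPM in the CS lungs and 26.7, 40.4 and 43.3 in the PS lungs (0.75 ± 0.195, adjusted p = 0.0469). The median log2 fold change of the 13 was 0.16 in the liver and 0.01 in the lung, beside -0.03 and 0.01 over all genes. Among 6 genes of heme breakdown and bilirubin handling, 3 were tested in the lung and Hmox2, the constitutive heme oxygenase, fell from 32.2 to 40.1 CPM in CS to 17.4 to 23.4 in PS (-0.87 ± 0.170, adjusted p = 0.0279). Hmox1 and Hmox2 thus had lung values of opposite sign, and that of Hmox1 was not called.

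None of 9 genes of heme transport and scavenging was called in either tissue, and Hpx, the plasma heme binder hemopexin, was at -0.06 ± 0.201 in the liver. Of 14 iron genes, 12 were tested in the lung and 1 was called. Ncoa4, the receptor that delivers ferritin to the lysosome, read 27.6, 40.8 and 30.3 CPM in the CS lungs and 8.46, 7.26 and 14.1 in the PS lungs (-1.73 ± 0.272, adjusted p = 0.0194). Fth1 and Ftl1, the ferritin chains, were at 0.19 ± 0.189 and 0.52 ± 0.201 in the lung, and neither was called. Of 9 targets of NRF2, the factor that also induces Hmox1, Txnrd1 fell by 0.88 on the log2 scale in the lung (adjusted p = 0.0353), and the median was -0.31. No gene was called among 15 regulators of the pathway, of which 13 were tested in the liver and 12 in the lung. Of these, Nfe2l2, the gene of NRF2, was at -0.67 ± 0.259 in the lung. Of 12 heme proteins, among them Cyp2e1 and Cat, 11 were tested in the liver and 9 in the lung, and none was called, with medians of 0.15 in the liver and -0.51 in the lung.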

How the data were processed

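Libraries were assigned to tissue, diet, replicate and mouse from the labels. The members and the gene lists were chosen with earlier results of these data known. Per the labels and the methods, poly-A RNA was read as NEBNext Ultra libraries, and the authors aligned reads to mm10 with HISAT2 2.0.5 and counted them per gene with featureCounts 1.5.0-p3. The counts were deposited as raw numbers of reads per gene. FPKM values, which the authors scaled for gene length and library, served only as an alternative with limma 3.58.1.

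From the counts, edgeR 4.0.16 in R 4.3.3 (TMM, its default filter, robust quasi-likelihood test, Benjamini-Hochberg adjustment over all genes tested) compared diets within each tissue, and all 15 libraries in 1 model for the difference and for lung against liver. CPM are scaled within a tissue unless stated, and RPKM over both. The fits were also run on simulated counts. The changes put in were larger than those of the members between diets, and no GC pattern was simulated, so this does not bear on the calls. Exact permutations used scipy. Named genes are the 9 members, listed genes with an adjusted p under 0.05 in a diet comparison, otherwise at most 3 of the highest counts per list, and the 3 genes of most like profile to Alas1, Alas2 and Hmox1. Arntl, Npas2, Dbp, Adgre1, Csf1r, Cd68, Epb42, Rhag, Klf1 and Gata1 lie outside this rule and were chosen after their values were seen. Exons were taken from GENCODE M21, and starts from RefSeq. Mice pair the tissues, since 6 gave both, although liver and lung deviations of a mouse correlated at only -0.112 to 0.218. Alternatives were DESeq2 1.42.0's size factors and its Wald test, no filter, a minimum of 10 counts per library, FPKM, a replicate block, removal of length or GC trends and leaving out each library. Library totals without TMM, the omission of 3 livers and centring within diets were added after the data were seen. Within a tissue each library is a mouse of its own, and no library repeated another. Some genes count toward their list but have no value of their own reported here.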

Additional observations from a re-analysis of the deposited data

How the results depend on the processing

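Of the 9 members, the count called between diets in the liver was 0, but 1 (Alas1) with DESeq2's Wald test and 1 with no filter (adjusted p = 0.0472), and 0 to 1 when single libraries were left out, with the 1 obtained without CS 2 (adjusted p = 0.0189). In the lung it was 3, but 5 with DESeq2's Wald test, 2 to 4 under the other alternatives, and 0 to 5 when single libraries were left out, where 1 diet then has 2 libraries. The difference between tissues called 0, but 1 with DESeq2's Wald test. Over all genes the liver calls were 1 with edgeR, 163 with DESeq2 and 26 with no filter, and the lung calls were 1542 with edgeR and 3090 with DESeq2. Lung against liver called 7 to 8 members throughout, but not the same ones: with library totals 6 were lower, without Alas2 (adjusted p = 0.456), and Ppox and Hmox1 were higher. The replicate numbers did not pair the samples (correlations of -0.411 to -0.0241 in the liver and -0.00522 to 0.091 in the lung), and the replicate block called 0 members in the liver and 3 in the lung, with Alas1 at 1.11 in the liver (adjusted p = 0.99978). In the lung it ended the call of Alad (adjusted p = 0.0597) and brought Ppox under the threshold (adjusted p = 0.0247), as 5 further alternatives did.

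The signs that turned belonged to changes that were not called in the fits reported. In the liver Alas2 turned to 0.035 and 0.0498, Urod to 0.0058 and 0.0066 and Cpox to 0.056 and 0.063 with limma on log2(FPKM + 1) and log2(FPKM + 0.1). Urod turned to 0.0033 with the replicate block and 0.033 without the GC trend, Cpox to 0.022 without the length trend, and Fech to -0.0098 with library totals. Without CS 2, PS 1 and PS 3, Urod, Cpox and Fech were at 0.086, 0.064 and -0.018 in the liver, and in lung against liver Ppox turned to 0.038, while Hmox1 was called at -0.50. With library totals Ppox and Hmox1 turned to 1.01 and 1.03 in that comparison and were called (adjusted p = 0.00089 and 0.00101). With single libraries left out of the liver, Alas2 ranged from -0.38 to 0.14, Alad from -0.014 to 0.60, Uros from -0.025 to 0.26, Cpox from -0.29 to 0.24, Hmox1 from -0.34 to 0.077, Urod from -0.11 to 0.12 and Fech from -0.19 to 0.16. In the lung Alas1 ranged from -0.18 to 0.32. For the difference between tissues Alad ranged from -0.073 to 0.51 and Fech from -0.52 to 0.00598. In the lungs, r of Alas2 with the globins turned to -0.434 without the 2 farthest libraries. The cause of these shifts was not tested.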

Other observations

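Klf1, an erythroid transcription factor, was chosen after its values were seen. It had 37 to 61 counts in the CS livers and 68 to 90 in the PS livers, where Gata1, the factor it usually accompanies, had at most 1 count. In the lungs Klf1 had at most 10 counts and Gata1 7 to 32. Globin reads differed in makeup between the livers, with 15.2 alpha globin reads per beta globin read in CS 2, 2.45 in PS 1 and 0.723 to 1.48 in the other 7. CS 2 and PS 1 also had the highest GC measure of the livers, at 0.557 and 0.183. In the lungs this ratio was 1.18 to 1.79 in the CS group and 2.23 to 3.98 in the PS group, without overlap. The GC measure did not overlap between the diets in the lung either, and neither did the CPM of 36% of the genes tested there. The part of GC content in the ratio was not tested.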
